A study of Cricetulus griseus with 5 samples.

Results

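Cytochrome P450 genes are the 68 genes, on 72 array probes, whose mouse symbol begins with Cyp followed by a family number, a letter and a gene number, together with Cyp51. They were taken from 16504 genes, on 17786 probes, that the platform's annotation table links to a single symbol, out of 20868 probes in all. Cyp51 carries no letter and was added because it is named in the rule, whereas Cyp2ab1 has 2 letters and was not a member. The 52 genes (55 probes) of families Cyp1 to Cyp4 are called xenobiotic families here, and the 16 genes (17 probes) of families Cyp7 and higher are called sterol and steroid families. Both names are those of the rule: Cyp2r1 acts on vitamin D, Cyp4a and Cyp4f enzymes act on fatty acids, Cyp26 enzymes act on retinoic acid, and Cyp20a1 has no settled substrate. A member named Cyp4x1os is an opposite-strand transcript and Cyp4f41-ps a pseudogene, so neither stands for an enzyme.

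All 5 arrays were of 1 kind, with total RNA of A23, a Chinese hamster fibroblast line that serves as recipient in radiation hybrid panels, in both channels, Cy5-labelled in channel 1 and Cy3-labelled in channel 2. The series' design text calls them a control for the power to detect cis ceQTLs, loci at which extra copies of a gene alter its own transcript, in a radiation hybrid experiment. The labels number the arrays as replicas 1 to 5 (replicates below) and do not tell if each had its own culture, extract or labelling, so the p-values measure array-to-array spread that may be purely technical. The arrays carry mouse gene names and were hybridised with hamster RNA, and 1 cell line stands for the whole series.

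P450 enzymes are heme proteins that insert oxygen into small molecules. Those of the endoplasmic reticulum receive electrons from P450 reductase and cytochrome b5, and those of mitochondria, such as Cyp11a1, Cyp24a1 and Cyp27a1, from ferredoxin. Most members of the xenobiotic families are liver, lung or intestinal enzymes, and the classic sterol enzymes belong to liver, adrenal gland, gonad, kidney or brain. Cyp51, which demethylates lanosterol on the way to cholesterol, is used by nearly every dividing cell, and Cyp1b1 is known from mesenchymal cells.

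The values are the deposited log ratios of the channels, in which 0 means equal signal. The log base is not stated and was read as log10; which dye is in the numerator is not stated either, so a ratio is described by its sign alone. Both channels held RNA of the same line, so the design implies a ratio of 0. Every array had the same dye in each channel. A fixed dye offset of a probe could therefore not be separated and was not tested. The means, folds and calls below are not read as differences in expression. A ratio does not give a level: these data do not show whether A23 cells express a given P450, and no spot brightness was used here. Over all probes the SD of the ratios of an array was 0.119 to 0.174, widest on replicate 2. Over the 72 P450 probes it was 0.100 to 0.166, again widest on replicate 2. Across probes, correlations between arrays lay between 0.268 and 0.424 over all probes and between 0.125 and 0.440 over the 72 P450 probes, which share arrays, dyes and labellings.

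The P450 genes departed from a ratio of 0 about as often as other genes did. With limma's test of each mean against 0, adjusted by Benjamini-Hochberg over all 20868 probes, 3 of 72 P450 probes (4.17%) had an adjusted p under 0.05, against 3.42% of all probes. The 3 were Cyp4a10 and Cyp2c37, both negative, and Cyp2a12, positive. By sign this is 2.78% of the P450 probes negative against 2% of all probes, and 1.39% positive against 1.41%. At an unadjusted p under 0.05, 18 of 72 (25%) stood out, 5 positive and 13 negative, against 27.3% of all probes. These shares are near those of all probes and are no result about P450 genes as a group. A positive mean was found on 29 P450 probes, a negative mean on 41 and a mean of exactly 0 on 2. Over all 20868 probes, 10695 means were positive, 9761 negative and 412 exactly 0. The difference in split was not tested. The median of the 72 means was -0.0105, against 0.00187 over all probes.

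Cyp4a10, a fatty acid omega-hydroxylase that in mouse liver is a classic target of the receptor Ppara, had the lowest adjusted p of the family. Its log ratios on replicates 1 to 5 were -0.353, -0.270, -0.208, -0.262 and -0.226. Every array was well below 0 and the values did not approach it. The mean was -0.264 ± 0.0559 (SD, n = 5; limma adjusted p = 0.0214), with a 95% confidence interval of -0.323 to -0.204, or 1.84-fold on a log10 scale and 1.20-fold on a log2 scale. The call was lost when any single array was left out (limma adjusted p = 0.0583 to 0.106), while the mean remained between -0.278 and -0.241.

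The other Cyp4a genes, which encode related fatty acid hydroxylases, also had negative means. Cyp4a14 gave -0.0771, -0.104, -0.0201, -0.0773 and -0.0834, with a mean of -0.0724 ± 0.0312 (SD, n = 5; limma adjusted p = 0.0631). Cyp4a12a gave -0.0451, -0.0848, -0.0573, -0.0345 and -0.172, with a mean of -0.0786 ± 0.0552 (limma adjusted p = 0.116). Both were below 0 on each array, but neither passed over all probes; Cyp4a14 passed with scale normalization, with robust regression and with zero-holding probes left out (limma adjusted p = 0.0485, 0.00143 and 0.0461), and Cyp4a12a with robust regression (0.0360). Cyp4a31 lay on both sides of 0, from -0.0627 to 0.0585, with a mean of -0.00321 ± 0.0435. The 4 means thus ran from -0.264 to -0.00321, and only Cyp4a10 lay beyond -0.1.

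Cyp2c37, of a subfamily that oxidises drugs and arachidonic acid, had the most negative mean of all P450 probes. Its ratios were -0.237, -0.247, -0.255, -0.259 and -0.505. The first 4 arrays were nearly equal and replicate 5 stood far below them. The mean was -0.301 ± 0.114 (SD, n = 5; limma adjusted p = 0.0488), 2.00-fold on a log10 scale and 1.23-fold on a log2 scale. Without replicate 5 the mean was -0.250 and the limma adjusted p was 0.0188, whereas leaving out replicate 1, 2, 3 or 4 lost the call (limma adjusted p = 0.124, 0.119, 0.150 and 0.115).

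None of the other 8 Cyp2c genes was called, and their means took both signs. Cyp2c39 gave 0.199, 0.229, -0.0111, 0.0420 and 0.136, a mean of 0.119 ± 0.102 (limma adjusted p = 0.154), and was the highest. Cyp2c40 gave 0.0361, 0.0112, -0.291, -0.334 and exactly 0, a mean of -0.115 ± 0.181 (limma adjusted p = 0.349), so that replicates 3 and 4 stood apart from the rest. Cyp2c55, Cyp2c70 and Cyp2c23 had means of -0.0391, -0.0388 and -0.0123 with SDs of 0.0272, 0.0437 and 0.0187, and of these Cyp2c55 alone was negative on each array. Cyp2c29, Cyp2c38 and Cyp2c66 took both signs, with means of -0.0605, 0.0672 and 0.0381 and SDs of 0.104, 0.0954 and 0.139. Over the 9 probes 3 means were positive and 6 negative, with a median of -0.0388. Members of this and other large P450 subfamilies resemble each other in sequence, and how far their probes tell the hamster transcripts apart was not tested.

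Cyp2a12, a liver enzyme of the Cyp2a subfamily, was the P450 gene called with a positive ratio. It gave 0.112, 0.0534, 0.0583, 0.0981 and 0.0818. Every array was above 0 and the highest was about double the lowest. The mean was 0.0807 ± 0.0251 (SD, n = 5; limma adjusted p = 0.0469), 1.20-fold on a log10 scale and 1.06-fold on a log2 scale, with a 95% confidence interval of 0.0503 to 0.111. The call was lost after quantile normalization (limma adjusted p = 0.0575) and without any single array (0.0949 to 0.138). Cyp2a4, which hydroxylates steroids in mouse, had the opposite sign on replicates 1 to 4, at -0.0390, -0.0253, -0.0218 and -0.0381, and 0.0265 on replicate 5, a mean of -0.0195 ± 0.0268.

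**Figure D1:**
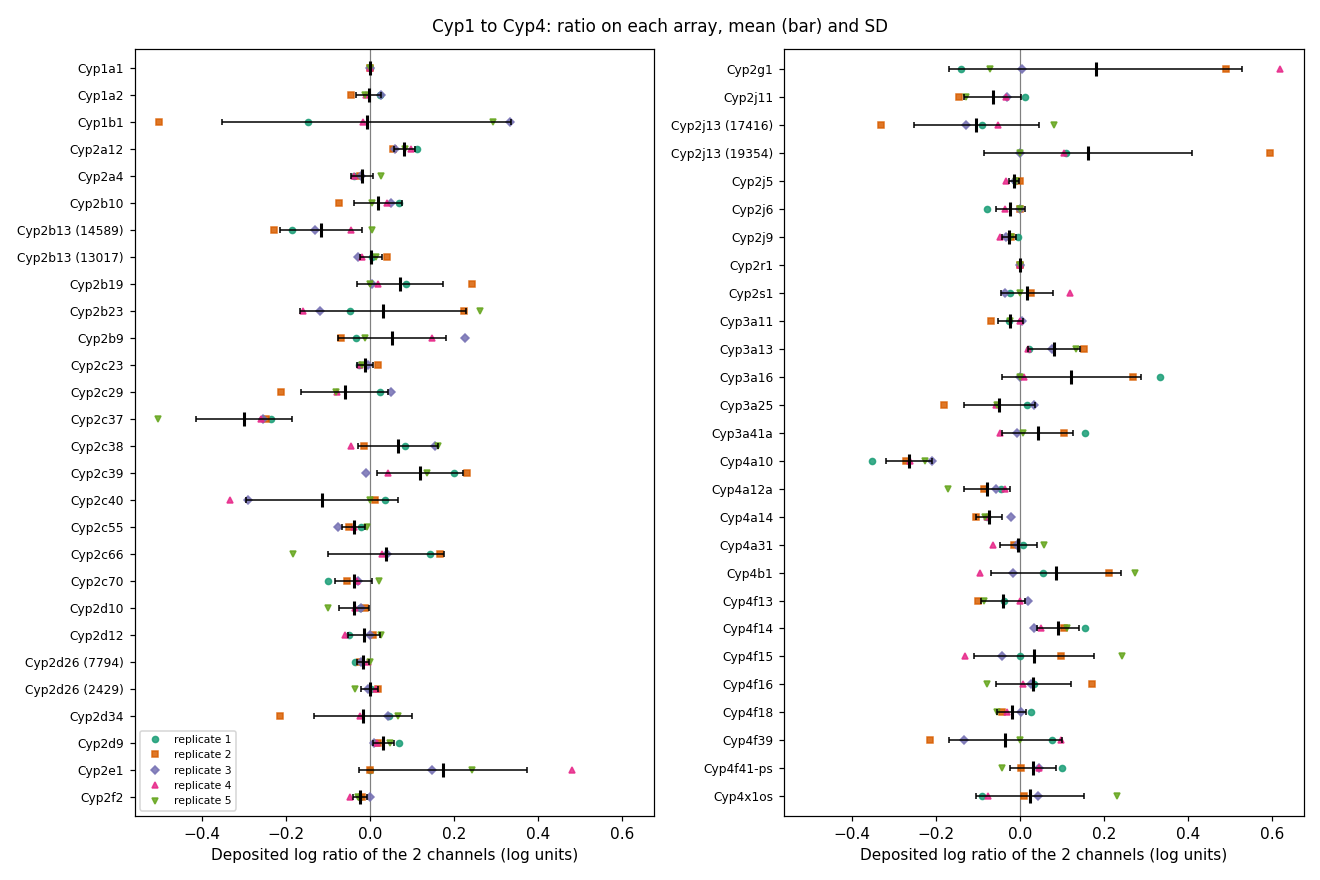
Log ratio on each of the 5 arrays (coloured symbols) for the 55 probes of families Cyp1 to Cyp4, with the mean (vertical bar) and the SD between arrays (horizontal line); the x axis is in deposited log units and numbers in brackets are array features. Cyp4a10, Cyp2c37 and Cyp2a12 kept to one side of 0, while Cyp1b1 and Cyp2g1 spread over both sides with SDs of 0.343 and 0.348.

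The Cyp1 genes, which the aryl hydrocarbon receptor Ahr induces and which oxidise aromatic hydrocarbons, ranged from no recorded difference to almost the widest spread of the family. Cyp1a1 was listed at exactly 0 on all 5 arrays. Cyp1a2 lay close to 0, between -0.0461 and 0.0257, with a mean of -0.00366 ± 0.0297. Cyp1b1 gave -0.149, -0.503, 0.332, -0.0160 and 0.292, so that replicates 2 and 3 lay far out on opposite sides. Its mean was -0.00865 ± 0.343 (SD, n = 5; limma adjusted p = 0.990), and its 95% confidence interval of -0.362 to 0.345 allows 2.30-fold one way and 2.21-fold the other if log10. The mean had no settled sign: it was 0.115 without replicate 2 and -0.0939 without replicate 3.

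Wide spreads between arrays were found in further Cyp2 genes, 3 of which follow. Cyp2b23 (SD 0.197) and Cyp2c40 (SD 0.181) spread almost as widely as Cyp2e1 below. Cyp2g1, an enzyme of the olfactory lining, gave -0.141, 0.491, 0.00531, 0.619 and -0.0704, with replicates 2 and 4 far above the other arrays. Its mean of 0.181 ± 0.348 (limma adjusted p = 0.437) was the highest of all P450 probes and had the largest SD. Cyp2e1, the ethanol-oxidising enzyme of liver, was listed at exactly 0 on replicates 1 and 2 and gave 0.148, 0.480 and 0.242 on replicates 3, 4 and 5, a mean of 0.174 ± 0.200 (limma adjusted p = 0.236). No array of Cyp2e1 was negative, yet its SD exceeded its mean. Cyp2j13 had 2 probes of opposite sign: feature 17416 gave -0.0895, -0.329, -0.128, -0.0515 and 0.0826, and feature 19354 gave 0.111, 0.595, 0, 0.104 and 0. Replicate 2 was the extreme array of both, in opposite directions, and the means were -0.103 ± 0.149 and 0.162 ± 0.248 (limma adjusted p = 0.320 and 0.339).

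Probes of one symbol can also be compared for 3 other genes. Cyp2b13 had one probe near 0, at 0.00214 ± 0.0271, and one at -0.118 ± 0.0971 that was negative on replicates 1 to 4. The probes of Cyp2d26 stood at -0.00138 ± 0.0211 and -0.0173 ± 0.0145, and those of Cyp26b1 at 0.00119 ± 0.0234 and 0.00267 ± 0.0122. Thus 2 of the 4 genes with several probes had both probes close to 0. In the other 2 the probe means lay farther apart, but none of these probes was called and the difference was not tested.

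The remaining Cyp2 genes gave no call in limma's least-squares fit; robust regression called Cyp2d10 and Cyp2f2, both negative (adjusted p = 0.0417 and 0.0254). Besides Cyp2b13, the Cyp2b genes, whose member Cyp2b10 is the phenobarbital-induced enzyme of mouse liver, had means of 0.0178 (Cyp2b10), 0.0704 (Cyp2b19), 0.0315 (Cyp2b23) and 0.0511 (Cyp2b9), all with an SD above the mean. The Cyp2d subfamily, which holds many drug-oxidising enzymes, was quieter, with means from -0.0383 (Cyp2d10) to 0.0316 (Cyp2d9) and a median SD of 0.0304 over 6 probes, although Cyp2d34 had an SD of 0.116. Cyp2d9 was positive and Cyp2d10 negative on each array, and the Cyp2d26 probe of feature 7794 was negative on each as well. Among the Cyp2j genes, which epoxidise arachidonic acid, Cyp2j5 and Cyp2j9 were negative on each array, at -0.0129 ± 0.0122 and -0.0251 ± 0.0165 (limma adjusted p = 0.339 and 0.164), while Cyp2j6 and Cyp2j11 had means of -0.0226 and -0.0643. Cyp2j5 had the smallest SD of any P450 probe that was not listed at 0 throughout. Cyp2f2, a lung enzyme that oxidises naphthalene, stood at -0.0240 ± 0.0171 with 4 negative arrays and 1 exact 0. Cyp2s1, known from epithelia, gave -0.0237, 0.0273, -0.0342, 0.120 and 0, and Cyp2r1, a vitamin D 25-hydroxylase, was listed at exactly 0 on all 5 arrays.

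Of the Cyp3a genes, which encode the main drug-oxidising enzymes of liver and gut, Cyp3a13 was positive on each array, at 0.0227, 0.153, 0.0772, 0.0203 and 0.134, a mean of 0.0815 ± 0.0615 (limma adjusted p = 0.129). Cyp3a16 had a larger mean, 0.123 ± 0.166, that came from replicates 1 and 2, at 0.334 and 0.270, with the other arrays at 0, 0.00895 and 0. Cyp3a11, Cyp3a25 and Cyp3a41a took both signs, with means of -0.0222, -0.0483 and 0.0430. The Cyp4f genes, several of which inactivate leukotrienes, had means from -0.0407 (Cyp4f13) to 0.0919 (Cyp4f14), 4 positive and 3 negative. Cyp4f14 alone among them was positive throughout, at 0.156, 0.106, 0.0332, 0.0505 and 0.113 (SD 0.0499; limma adjusted p = 0.0780). Cyp4f15, Cyp4f16, Cyp4f18 and Cyp4f39 had means of 0.0340, 0.0324, -0.0196 and -0.0342 and lay on both sides of 0, as did the pseudogene Cyp4f41-ps (0.0310), the opposite-strand Cyp4x1os (0.0243) and the lung enzyme gene Cyp4b1 (0.0866 ± 0.155).

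None of the 17 probes of the sterol and steroid families passed limma's test over all probes, and 5 had an unadjusted p under 0.05 (29.4%), near the 27.3% of all probes. All 5 were negative; 13.8% of all probes were negative at that level, a comparison made after the signs were seen, resting on few probes and not tested. The 5 were Cyp7a1, Cyp8b1, Cyp27a1, Cyp39a1 and Cyp51, of which the first 4 make bile acids or clear oxysterols. Robust regression called 5 of the 17 (Cyp8b1, Cyp46a1 and Cyp51, negative, and Cyp17a1 and Cyp20a1, positive). It also called 4019 of 20456 probes in all, so calls under it were common. Of the 17, Cyp8b1 alone was called with array weights and with zero-holding probes left out. Those settings called 1581 of 20868 and 1325 of 15507 probes in all.

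Cyp8b1, the sterol hydroxylase that sets the share of cholic acid, came closest to the threshold. It gave -0.148, -0.109, -0.191, -0.160 and -0.0489, a mean of -0.131 ± 0.0546 (SD, n = 5; limma adjusted p = 0.0537), 1.35-fold if log10. Cyp7a1, the rate-limiting enzyme of bile acid synthesis, gave -0.0383, -0.252, -0.215, -0.0973 and -0.112, a mean of -0.143 ± 0.0880 (limma adjusted p = 0.0915). Both were negative on every array, with replicate 5 nearest to 0 for Cyp8b1 and replicate 1 for Cyp7a1. Cyp39a1, an oxysterol hydroxylase, gave -0.110, -0.166, -0.347, -0.0511 and -0.0730, a mean of -0.149 ± 0.119 (limma adjusted p = 0.134), and was drawn down by replicate 3. Cyp27a1, the mitochondrial enzyme that oxidises the sterol side chain, was small and even, at -0.00475, -0.0467, -0.0340, -0.0127 and -0.0644, a mean of -0.0325 ± 0.0244 (limma adjusted p = 0.161).

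The other 2 enzymes of this kind differed from these. Cyp7b1, the oxysterol hydroxylase of the alternative bile acid pathway, gave 0.414, 0, 0, 0.490 and -0.0812, a mean of 0.165 ± 0.266 (limma adjusted p = 0.360), the highest of the sterol and steroid families. Replicates 1 and 4 carried that mean. Cyp46a1, the cholesterol hydroxylase of neurons, gave -0.0360, -0.0545, -0.0445 and -0.0649 on replicates 1 to 4 and 0.0501 on replicate 5, a mean of -0.0300 ± 0.0460. Of the 6 bile acid and oxysterol enzymes, 5 had a negative mean, with a median of -0.0819.

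Cyp51 gave -0.283, -0.0764, -0.0727, -0.0436 and -0.128. It was negative on every array, with replicate 1 well below the others. The mean was -0.121 ± 0.0958 (SD, n = 5; limma adjusted p = 0.135), 1.32-fold if log10, with a 95% confidence interval of -0.221 to -0.0209. Without replicate 1 the mean was -0.0802.

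Genes of steroid hormone, vitamin D and retinoic acid metabolism had median means of -0.0119, -0.0377 and 0.00119. These were nearer to 0 than the -0.0819 of the bile acid and oxysterol enzymes. The contrast did not hold gene by gene: Cyp21a1 and Cyp24a1 had means farther from 0 than Cyp27a1 and Cyp46a1. Cyp11a1, which cleaves the cholesterol side chain to start steroid synthesis, had a mean of 0.00668 ± 0.0270, and Cyp17a1, which acts next towards androgens, gave 0.0254, 0.0375, 0.0299, 0.0193 and -0.00480, a mean of 0.0215 ± 0.0161 (limma adjusted p = 0.204). The adrenal enzymes Cyp21a1, which acts in cortisol and aldosterone synthesis, and Cyp11b2, which completes aldosterone, had means of -0.0522 ± 0.0496 and -0.0304 ± 0.0723, and the first of these was negative on each array. Cyp27b1, which activates vitamin D, lay between -0.153 and 0.0569, and Cyp24a1, which breaks it down, gave -0.186, 0, 0, -0.000881 and -0.0538. Cyp26a1 and Cyp26b1 clear retinoic acid. Cyp26a1 lay between -0.0906 and 0.0826, whereas both Cyp26b1 probes lay between -0.0321 and 0.0272. Cyp20a1 was positive on each array, at 0.00638, 0.202, 0.0543, 0.0432 and 0.0574, a mean of 0.0728 ± 0.0753 (limma adjusted p = 0.208), with replicate 2 far above the rest.

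**Figure D2:**
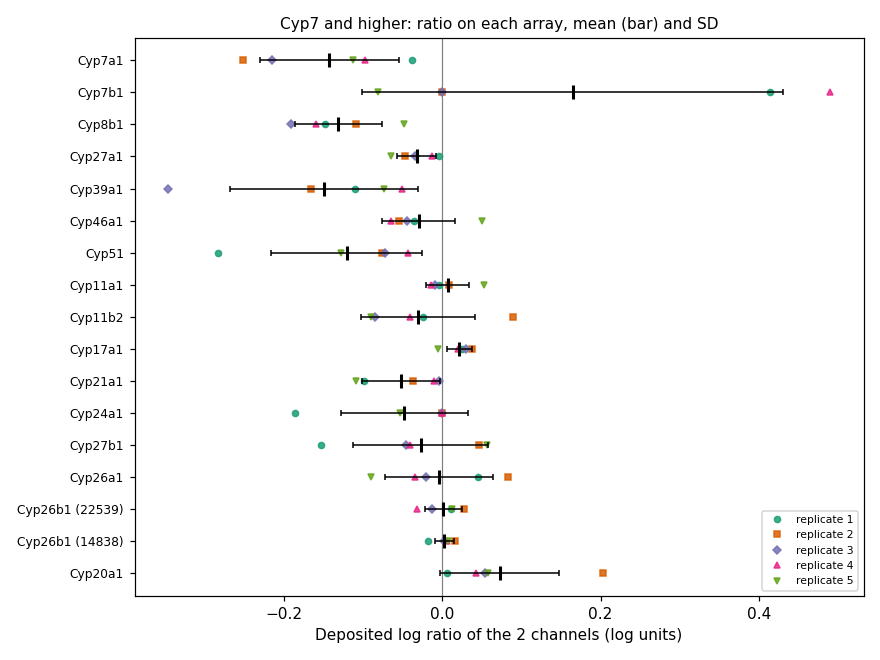
Log ratio on each of the 5 arrays (coloured symbols) for the 17 probes of families Cyp7 and higher, ordered by role, with the mean (vertical bar) and the SD between arrays (horizontal line); the x axis is in deposited log units. Cyp7a1, Cyp8b1, Cyp27a1, Cyp39a1, Cyp51 and Cyp21a1 lay below 0 on all 5 arrays, Cyp20a1 lay above 0, and Cyp7b1 had the widest spread (SD 0.266).

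Set side by side, the sterol and steroid families had a lower median ratio than the xenobiotic families, by an amount about equal to its spread between arrays. The median of the probe means was -0.0300 over 17 probes and -0.00366 over 55, a difference of -0.0263. That difference shrank to -0.00977 without replicate 1, -0.0130 without replicate 3 and -0.00612 without replicate 5. On replicates 1 to 5 the median ratio was -0.0248, 0, -0.0204, -0.0321 and -0.0538 for the sterol and steroid families. For the xenobiotic families it was 0, -8.88e-05, 0, -0.0252 and 0. The mean of the differences within arrays was -0.0212 ± 0.0208 (SD, n = 5 arrays), from -0.0538 on replicate 5 to 8.88e-05 on replicate 2. It was negative on 4 arrays and close to 0 on replicate 2, the array with the widest ratios. The difference was not tested, since the genes were chosen with earlier results of these data known.

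**Figure D3:**
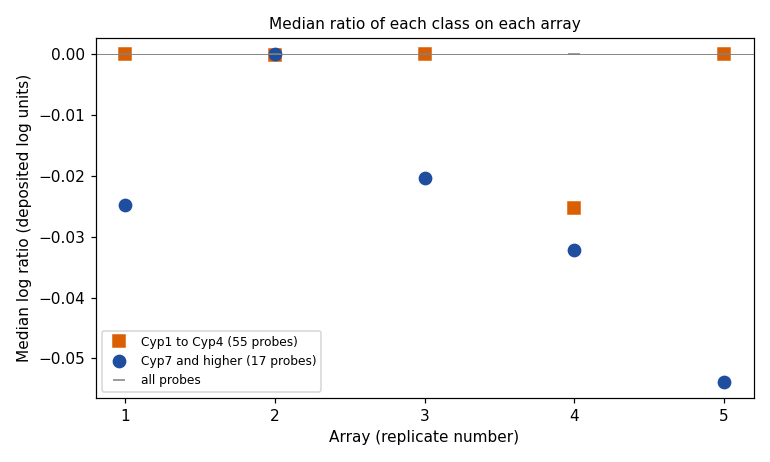
Median log ratio (y axis, deposited log units) of the 55 Cyp1 to Cyp4 probes (squares), the 17 probes of Cyp7 and higher (circles) and all probes (dashes) on each array. The circles lie below the squares on replicates 1, 3, 4 and 5, with the smallest difference, -0.00694, on replicate 4, and the markers all but coincide on replicate 2.

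Ratios of 1 sign on all 5 arrays were found for 20 of 72 P450 probes (27.8%), against 26.4% of all probes. In the xenobiotic families it was 13 of 55 (23.6%) and in the sterol and steroid families 7 of 17 (41.2%). Counting negative probes alone, it was 9 of 55 (16.4%) and 6 of 17 (35.3%), against 13.4% of all probes. The xenobiotic share was near that of all probes; the sterol and steroid share was higher, on 6 probes, and was not tested.

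Spread between arrays had similar medians in both classes and over all probes, and was not tested. The median SD was 0.0569 for the xenobiotic families, 0.0682 for the sterol and steroid families and 0.0588 over all probes. The quartiles were 0.0295 and 0.122 for the xenobiotic families and 0.0270 and 0.0851 for the sterol and steroid families. The largest SDs belonged to Cyp2g1 (0.348), Cyp1b1 (0.343), Cyp7b1 (0.266) and the Cyp2j13 probe of feature 19354 (0.248). The smallest, apart from Cyp1a1 and Cyp2r1 at 0, were those of Cyp2j5 (0.0122) and the Cyp26b1 probe of feature 14838 (0.0122). Beyond 2-fold, if log10, lay 1 to 4 P450 probes per array (3.89% ± 1.81, SD, n = 5), against 4.31% ± 2.34 of all probes.

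**Figure D4:**
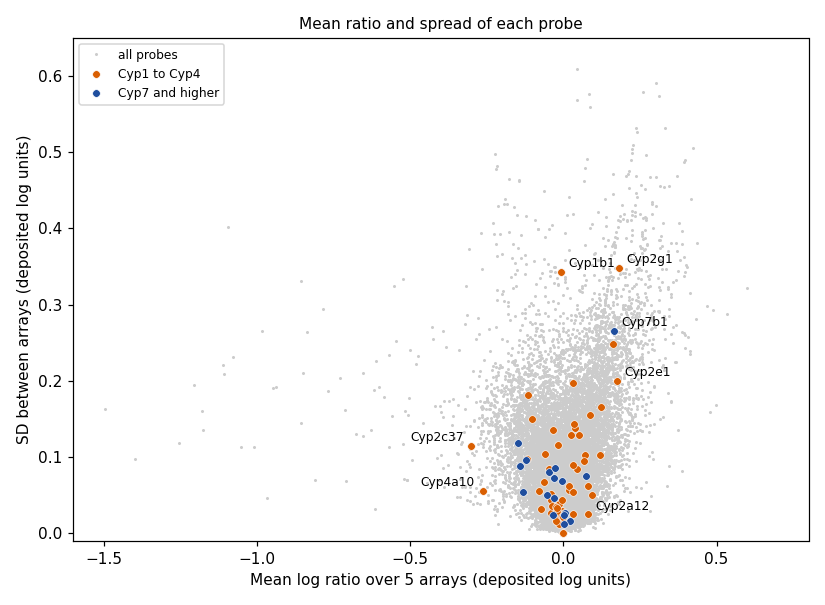
Mean log ratio over 5 arrays (x axis) against the SD between arrays (y axis), both in deposited log units, for all 20868 probes (grey), Cyp1 to Cyp4 probes (orange) and probes of Cyp7 and higher (blue). The P450 probes lie within the cloud of all probes, between means of -0.301 and 0.181, and Cyp4a10 lies at a mean of -0.264 and an SD of 0.0559.

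Exact zeros were listed for 14 of 72 P450 probes on at least 1 array (19.4%), against 25.7% of all probes. They were 12 of 55 in the xenobiotic families (21.8%) and 2 of 17, Cyp7b1 and Cyp24a1, in the sterol and steroid families (11.8%). The 2 probes listed at 0 on every array, Cyp1a1 and Cyp2r1, are 2.78% of the P450 probes, against 1.97% of all probes. Replicate 5 had the most zeros, with 9 of the 72, and replicate 4 the fewest, with 2, as over all probes (20.8% and 6.43%). Means and SDs that include such zeros, as for Cyp2e1, Cyp3a16, Cyp7b1 and the Cyp2j13 probe of feature 19354, depend on how these are read; the sources used here do not say how a 0 arises.

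Genes that work with P450 enzymes were counted from 6 lists, covering 113 genes on 115 probes, of which 5 probes were called (4 positive and 1 negative). That is 4.35%, near the 3.42% of all probes. None of the 5 was called when any single array was left out (limma adjusted p = 0.0583 to 0.151), and Blvrb and Mgst3 were not called after scale or quantile normalization either (0.0503 to 0.0678). The 9 genes of electron supply and heme transfer had 8 positive means and 1 negative, with a median of 0.0429. In limma's test 5 of the 9 (55.6%), all positive, had an unadjusted p under 0.05, against 27.3% of all probes. Over the 6 lists together it was 36 of 115 probes (31.3%). The higher share rests on 9 probes and was not tested. Cyb5b, an outer mitochondrial cytochrome b5, was called, at 0.0612, 0.0627, 0.0430, 0.0706 and 0.0585, a mean of 0.0592 ± 0.0101 (limma adjusted p = 0.0376). Its 5 arrays lay close together above 0. The ferredoxin gene Fdx1 had 0.0528 ± 0.0456 (limma adjusted p = 0.167) and the b5 reductase gene Cyb5r3 -0.00115 ± 0.0207.

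Receptors that control Cyp genes had 9 positive and 11 negative means with a median of -0.00718. In limma's test 6 of the 20 (30%) had an unadjusted p under 0.05, near the 27.3% of all probes. Arnt, the DNA-binding partner of Ahr, was the 1 called, at -0.122, -0.0980, -0.124, -0.154 and -0.113, a mean of -0.122 ± 0.0207 (limma adjusted p = 0.0209). Ahr itself gave 0.230, 0.440, 0.0646, 0.114 and -0.104, a mean of 0.149 ± 0.202 (limma adjusted p = 0.298), so the 2 partners had means of opposite sign. Nr1i2, the drug-sensing pregnane receptor, had 0.0518 ± 0.0547. Neither Ahr nor Nr1i2 passed.

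Among 12 genes of heme synthesis and breakdown, 9 had a positive mean, with a median of 0.0186. In limma's test 3 of the 12 (25%) had an unadjusted p under 0.05, near the 27.3% of all probes. Blvrb, a biliverdin reductase, was called, at 0.0689 ± 0.0227 (limma adjusted p = 0.0497). Alas1, the first enzyme of heme synthesis, had 0.0214 ± 0.0221, and the heme oxygenase gene Hmox1 was negative on each array, at -0.0375 ± 0.0148 (limma adjusted p = 0.0788). Cholesterol synthesis around Cyp51 had 13 positive and 4 negative means over 17 probes, with a median of 0.0265. Over all 20868 probes, 10695 means were positive and 9761 negative, and the difference in split was not tested. An unadjusted p under 0.05 in limma's test was found for 4 of the 17 probes (23.5%), against 27.3% of all probes. Dhcr7, which carries out the last step, was the 1 called, at 0.107, 0.162, 0.105, 0.118 and 0.0533, a mean of 0.109 ± 0.0388 (limma adjusted p = 0.0487), and Sqle, a squalene epoxidase, had 0.0160 ± 0.0215. Cyp51, at -0.121, thus lay below the lowest mean of this list, which was -0.0232.

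Steroid and bile acid enzymes that are no P450 had 10 positive and 8 negative means and 1 of exactly 0, with a median of 0.00521. None of the 19 passed limma's test, and 7 (36.8%) had an unadjusted p under 0.05, 3 positive and 4 negative, against 27.3% of all probes. Star, which brings cholesterol to Cyp11a1, gave -0.0872, -0.357, -0.0772, 0.0131 and -0.0164, a mean of -0.105 ± 0.147 (limma adjusted p = 0.309). The 38 probes of xenobiotic conjugation had a median of 0.00918, and 11 (28.9%) had an unadjusted p under 0.05, near the 27.3% of all probes. Among these 38, 1 probe of Mgst3, a microsomal glutathione transferase, was the 1 called, at 0.0759 ± 0.0251 (feature 14778; limma adjusted p = 0.0496). The other Mgst3 probe (feature 5241) was negative on each array, at -0.0457 ± 0.0489 (limma adjusted p = 0.227), so the probes of this gene had opposite signs. Markers gave no called probe in limma's test: 0 of 13 for fibroblasts, 0 of 19 for hepatocytes and 0 of 9 for steroid-making cells, against 3.42% of all probes, with medians of 0.00277, 0.00987 and -0.00807. At an unadjusted p under 0.05 stood 4 (30.8%), 3 (15.8%) and 3 (33.3%) of them, against 27.3% of all probes. Because both channels hold RNA of the same line, these ratios do not show which cell type's genes were expressed. The label of the line could therefore not be checked.

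**Figure D5:**
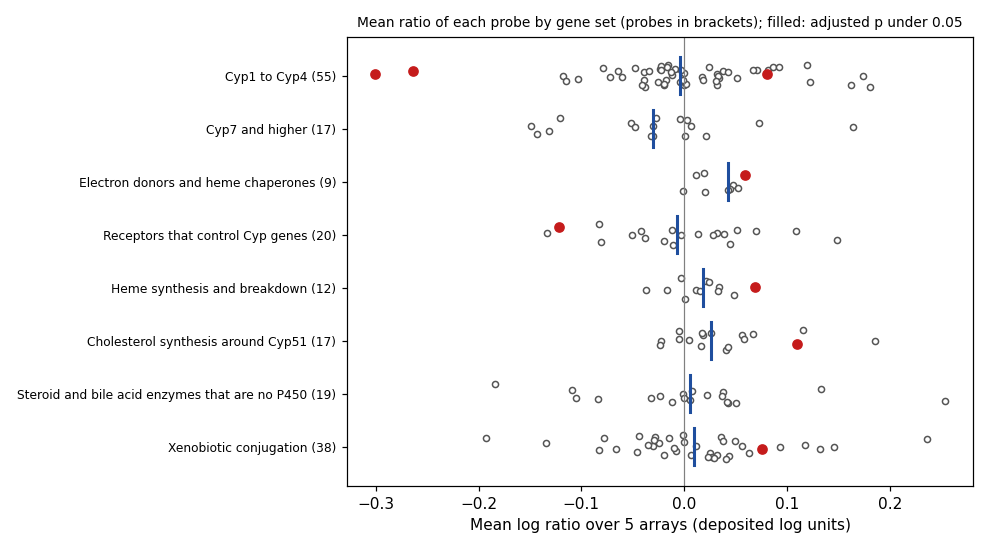
Mean log ratio over 5 arrays (x axis, deposited log units) of each probe of the P450 classes and of 6 lists of genes that work with them; filled points had an adjusted p under 0.05 and blue bars are medians. The 3 filled P450 points all belong to Cyp1 to Cyp4, and the called list genes are Cyb5b, Arnt, Blvrb, Dhcr7 and Mgst3.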

How the data were processed

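The deposited table holds 1 log ratio per probe and array, read here as log10, an inference from the Agilent labelling protocol that was not checked. The columns have a median of 0, both signs and many exact zeros, which do not tell the log base. The authors' background correction, dye normalization and log base are not given in the sources used here. Per the labels' protocols, 20 µg of total RNA was directly labelled. No value was changed beyond conversion to log2 for the fit. Of 20868 probes, 17786 had 1 gene symbol, 16 several and 3066 none. Each probe's mean ratio was tested against 0 in limma 3.58.1 under R 4.3.3 (intercept alone, lmFit, eBayes) with Benjamini-Hochberg adjustment over all 20868 probes at 0.05. The fit was also run on simulated data with independent, normally distributed noise and no exact zeros. That run cannot bear on the calls in the real data, whose arrays correlate and hold exact zeros. Python 3.11.15 and pandas 2.3.3 made the summaries. Values are in deposited log units, mean ± SD over n = 5 arrays, and confidence intervals are limma's. The number of arrays limits the precision; signal over background is not given. No other sample's column was present.

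The P450 genes and all lists were chosen with earlier results of these data known. Genes were named with values by a rule: every called probe, the 5 most extreme means of each sign in each class, the 4 largest and 4 smallest SDs, all genes with several probes and 8 fixed genes; the other members were added to give the whole family. From the lists, called genes and 12 fixed genes were to be named, where a probe with a single symbol carried them. Alternatives were scale and quantile normalization, robust regression, array weights, leaving out probes with an exact 0, averaging probes of a symbol, a log2 reading and leaving out each array. No sequence table was at hand, so no sequences are shown.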

Additional observations from a re-analysis of the deposited data

Results flagged for a closer look

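Among the 72 P450 probes and 4 class summaries, 74 had values that differed between arrays. In 8 of these (10.8%) 1 array lay far from the other 4. For independent, normally distributed values the rule flags about 1 in 20, but these probes share arrays and some hold exact zeros. The share flagged over all probes was not computed, so the count is no result about P450 genes. Replicate 5 was the distant array in 4 of the 8. It stood at -0.505 for Cyp2c37, against -0.259 to -0.237 on the others. It stood at -0.0997 for Cyp2d10 (others -0.0353 to -0.0126), at 0.0265 for Cyp2a4 (others -0.0390 to -0.0218) and at 0.0501 for Cyp46a1 (others -0.0649 to -0.0360). Replicate 2 was distant for the Cyp2j13 probe of feature 19354, at 0.595 against 0 to 0.111, and for Cyp20a1, at 0.202 against 0.00638 to 0.0574. Replicate 1 was distant for Cyp24a1, at -0.186 against -0.0538 to 0. The median of the xenobiotic families was -0.0252 on replicate 4 and between -8.88e-05 and 0 on the other arrays. Replicate 5 also held the most exact zeros and replicate 4 the fewest; their part in these values was not tested.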

How the results depend on the processing

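No paired analysis was possible because the arrays form 1 group. Under the alternatives other than the log2 reading, 31 named P450 probes gave 323 values. Of these, 282 kept their sign and their side of the threshold, 15 lost a call, 6 gained one and 20 turned sign. Only Cyp4a10, Cyp2c37 and Cyp2a12 had a call to lose, so all 15 losses fell on these 3 probes. The cause was not tested where none is given. Reading the values as log2 rescales every value alike and can alter no sign or call. Scale and quantile normalization each called 3 probes of the partner lists. For robust regression, probes at 0 throughout had to be dropped. It called 12 of 70 P450 probes (7 of 53 xenobiotic, 5 of 17 sterol and steroid), 25 list probes and 4019 of 20456 in all. Array weights called 1 sterol and steroid probe, 10 list probes and 1581 of all. Leaving out probes with an exact 0 called 5 of 58 P450 probes, 1 of them sterol and steroid, and 1325 of 15507 in all. It gave a median SD of 0.0546 for the sterol and steroid class. Averaging probes of a symbol left 405 calls in all, on fewer features, and 3 in the lists.

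Leaving out 1 array called 0 or 1 P450 probe (also 0 to 1 in the xenobiotic families and 0 in the sterol and steroid families), 0 list probes and 4 to 63 of all probes, with 4 arrays in place of 5; the 1 P450 call was Cyp2c37 without replicate 5. The class medians then ran from -0.0184 to -0.00229 (xenobiotic) and from -0.0290 to -0.0158 (sterol and steroid), and the sterol and steroid median SD from 0.0523 to 0.0762.

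Every turn of sign was in a probe whose mean was near 0 in the least-squares fit of all 5 arrays. The turned mean of Cyp1b1, which had an SD of 0.343, reached 0.115 without replicate 2. For Cyp1b1 the mean was 0.0280 with scale, 0.00951 with quantile and 0.0665 with array weights, and -0.0939 to 0.115 with 1 array left out. For the Cyp2b13 probe of feature 13017 it was -0.000785 with scale, -0.00730 with weights and -0.00727 to 0.00990 with 1 array left out. Cyp11a1 gave -8.79e-05 with robust regression, -0.000774 with weights and -0.00479 to 0.0119 with 1 array left out. The Cyp26b1 probes gave -0.00290 with weights (feature 22539), and -0.00532 to 0.00952 and, for feature 14838, -0.000580 to 0.00771 with 1 array left out. The Cyp2d26 probe of feature 2429 gave 0.000474 with robust regression and -0.00618 to 0.00715 with 1 array left out, and Cyp2s1 gave -0.00765 to 0.0309.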
